A study of Caenorhabditis elegans with 8 samples.

Results

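The mitochondrial ribosomal protein genes of the nematode Caenorhabditis elegans were taken as all genes in the count tables whose name is mrpl or mrps followed by a number, which gave 67 of 20191 genes. By name, 42 belong to the large subunit (mrpl) and 25 to the small subunit (mrps). The rule reads gene names only. Small RNAs of whole gravid adults on day 1 of adulthood were counted per gene in 8 libraries, 2 in each of 4 groups (the extraction text calls the animals young adults). The groups were the wild-type strain N2 and the strain YY1683, labelled as lacking zsp-1 (pid-2 in the tables, a Z granule gene), below the mutant, each fed HT115 bacteria with the empty vector L4440 or with oma-1 double-stranded RNA at 20 °C. The genotype label of YY1683 reads zap-1(-) and the series title zsp-1(-), and the allele is not given in the sources used here. The small RNAs were cloned by a method that does not need a 5′ monophosphate and so takes up 22G small interfering RNAs (siRNAs).

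The mitochondrial ribosome is built in the mitochondrial matrix from RNAs of the mitochondrial genome and from proteins whose genes lie in the nucleus. Those proteins are made in the cytosol and imported. The finished ribosome translates the few respiratory chain subunits that the mitochondrial genome encodes. In worms, knockdown of members such as mrps-5 is known to switch on the mitochondrial unfolded protein response and to lengthen life. 22G siRNAs are made by RNA-dependent RNA polymerases on messenger RNA templates, many of them in the germline, and are bound by Argonaute proteins that silence some targets and license others. Reads at these genes are therefore reads of small RNAs and not levels of messenger RNA.

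The libraries held 136908 to 340932 reads, so that 1 read corresponds to 2.93 to 7.30 CPM, the usual scaling of counts to library size. At zsp-1 itself (pid-2), the 4 wild-type libraries had 57 to 116 reads and the 4 mutant libraries 2 to 14. At oma-1, the libraries on L4440 had 20 to 42 reads and those on oma-1 RNAi 2541 to 5789. Germline and oocyte markers took 0.202 to 0.285% of reads in N2 and 0.194 to 0.220% in YY1683, body wall muscle and intestine markers at most 0.00293% each. No reads fell on 5 of 10 muscle, 3 of 12 intestine, 1 of 10 neuron, 2 of 10 sperm and 0 of 12 germline and oocyte markers. Sperm markers took 0.0215 to 0.0739% in N2 and 0.122 to 0.194% in YY1683, and neuron markers 0.0130 to 0.0241% and 0.0241 to 0.0431%. In RNA of whole animals, fewer cells of a type and fewer small RNAs per cell cannot be told apart, and the part of these marker differences in the results below was not tested.

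Every one of the 67 genes had small RNA reads, whereas 36.5% of all genes in the tables had none. This was not particular to the members. Every one of 76 cytosolic ribosomal protein genes, 23 mitochondrial protein import genes and 12 genes of the mitochondrial unfolded protein response also had reads. No reads fell on 1 of 54 oxidative phosphorylation genes, 1 of 22 mitochondrial translation genes and 7 of 12 genes of the mitochondrial genome. The members held 4961 reads over the 8 libraries, 0.277% of all reads, and 56 of the 67 had at least 1 read in every library. Single members ranged from 7 reads at mrpl-41 to 341 at mrpl-46, with a median of 62. No member dominated the total. The 5 most counted genes held 21.8% of the members' reads, and 18 genes were needed to reach 50%. Across the 67 genes the pooled reads went up with exon length (Spearman's rho 0.513, given as a description of genes that share libraries and depth).

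Levels of different genes were compared as RPKM, the CPM by library totals divided by exon length in kilobases, with exon lengths of 309 to 1969 bp from the tables. The median member had a mean of 39.7 RPKM over the 8 libraries, against 1.09 for the median of all genes. All 67 members lay above the median of all genes, 57 above its 75th percentile and 12 above its 90th. None lay above the 99th, and the middle of the list, from the lower to the upper quartile, spanned 28.6 to 57.0 RPKM. The large and the small subunit had medians of 42.2 and 36.3 RPKM. The highest mean level, 199 RPKM at mrpl-36, was 34.2 times the lowest, 5.83 RPKM at mrpl-41.

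**Figure D1:**
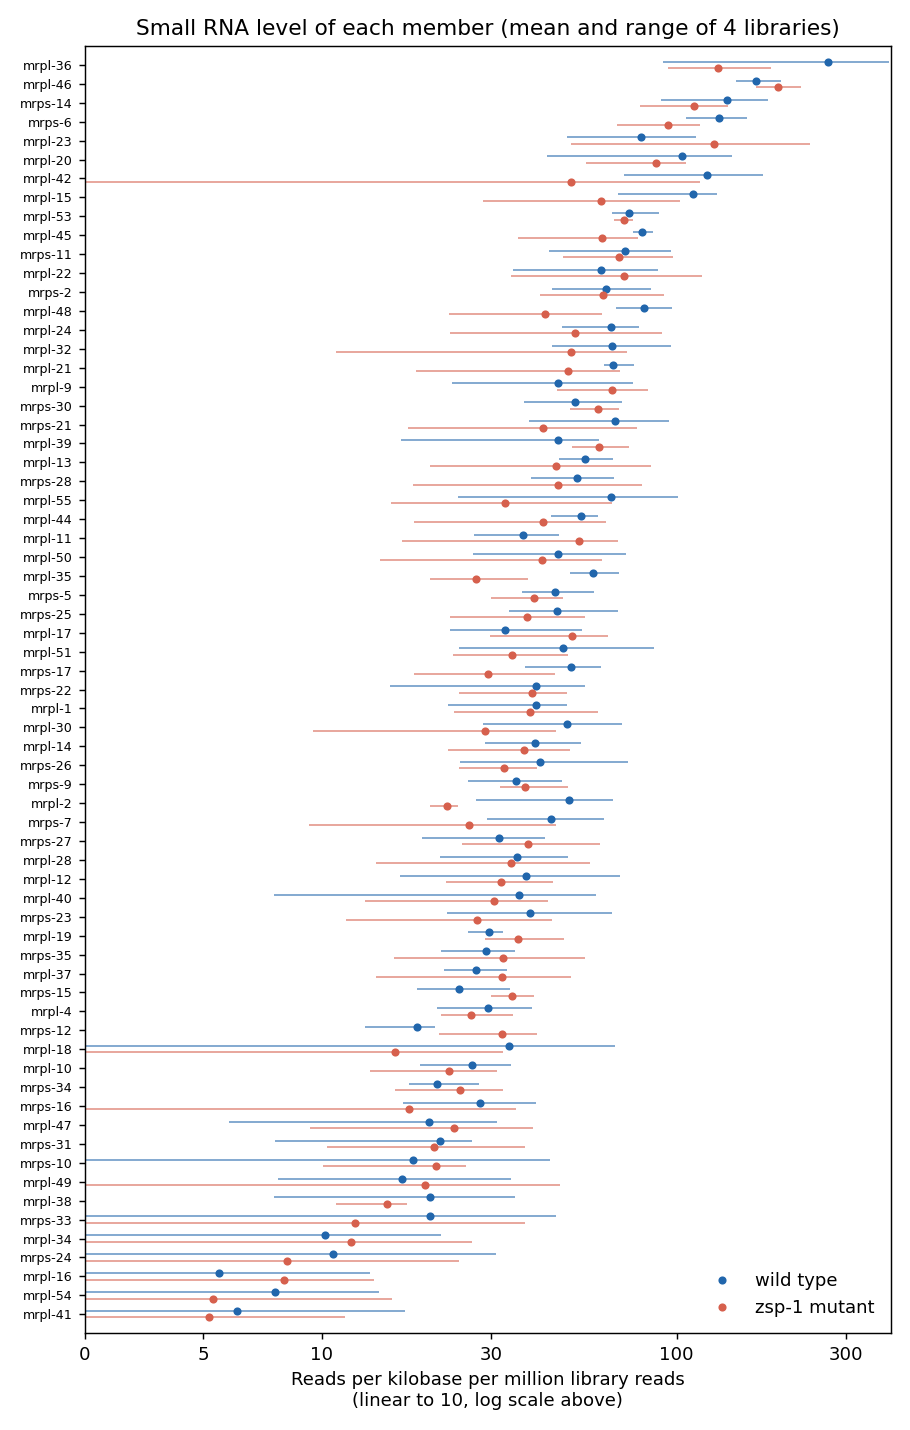
Small RNA level of each of the 67 genes in RPKM (horizontal axis, linear to 10 and logarithmic above). Points are means of the 4 wild-type (blue) or 4 mutant (red) libraries and lines span the lowest to the highest library. The genes run from mrpl-36 with a mean of 199 over all libraries to mrpl-41 with 5.83, and the ranges of the genotypes overlap at most genes.

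The highest per-length level belonged to mrpl-36, which encodes a very small protein of the large subunit and was the shortest member (309 bp; chromosome III, 9847626 to 9848116, genome build WBcel235, as for all coordinates here). Its mean was 199 ± 122 RPKM (SD, n = 8). It had 5, 23, 18 and 31 reads in the wild-type libraries (replicates 1 and 2 on L4440, then replicates 1 and 2 on oma-1 RNAi) and 14, 4, 13 and 6 in the mutant libraries in the same order. The first wild-type library on L4440 was lower than the other 3 of its genotype, and the ranges overlapped.

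mrpl-46, a protein of the large subunit with no counterpart in bacterial ribosomes, had the most reads and the second level, 180.4 ± 28.1 RPKM (SD, n = 8; chromosome IV, 800818 to 804547). Its libraries held 28, 36, 44 and 57 reads in N2 and 63, 33, 41 and 39 in YY1683, in the order given above. Every library had at least 28 reads, the ranges of the genotypes overlapped, and the SD was small beside the mean, unlike at mrpl-36.

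The small subunit was led by mrps-14 (125 ± 34.2 RPKM, SD, n = 8; chromosome II, 10240277 to 10242490) and mrps-6 (113 ± 29.5 RPKM, SD, n = 8; chromosome I, 4173743 to 4174774), homologues of bacterial proteins S14 and S6. mrps-14 had 20, 18, 37 and 18 reads in N2 and 35, 10, 22 and 10 in YY1683. mrps-6 had 21, 15, 24 and 30 reads in N2 and 28, 7, 20 and 11 in YY1683. These neighbours in the order of levels did not differ beyond their spread.

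The other members of the 8 with the highest levels were mrpl-23, mrpl-20, mrpl-42 and mrpl-15, with means of 86.0 to 103 RPKM. mrpl-23, whose bacterial homologue lies at the exit of the peptide tunnel (chromosome I, 6211270 to 6211885), had 5, 7, 18 and 14 reads in N2 and 26, 7, 31 and 5 in YY1683. mrpl-20, homologue of a bacterial protein needed to assemble the large subunit (chromosome II, 13338281 to 13339961), had 5, 15, 26 and 19 reads in N2 and 21, 5, 14 and 12 in YY1683. Both genes varied widely between libraries of a group. mrpl-42, a protein without a bacterial counterpart, has a short gene of 354 bp (chromosome IV, 9093975 to 9094468) that overlaps lpl-1 by 1 bp on the same strand. It had 11, 9, 7 and 10 reads in N2 and 14, 0, 3 and 3 in YY1683. Its high level rests on 57 reads in all. mrps-5, the member best known from knockdown studies in worms, stood in the middle of the list at 42.5 ± 8.62 RPKM (SD, n = 8; chromosome V, 12563487 to 12565785). It had 11, 10, 18 and 23 reads in N2 and 22, 6, 12 and 12 in YY1683.

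The lowest levels belonged to mrpl-41, mrpl-54, mrpl-16, mrps-24 and mrpl-34, with 5.83 to 11.2 RPKM and 7 to 16 reads over all libraries. Each of the 5 had at least 1 library with 0 reads, so a level in a single library cannot be read for them. They nevertheless lay at or above the 63.5th percentile of all genes per length.

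The members also shared features of position that the choice by name did not use. They were spread over the 5 autosomes, with 20 on chromosome III, 15 on I, 11 each on II and IV and 10 on V, and 0 of 67 on X, which carries 2789 of the 20191 genes (13.8%). X also held 2 of 76 cytosolic ribosomal protein genes, 0 of 23 protein import genes and 1 of 22 mitochondrial translation genes. It held 6 of 54 oxidative phosphorylation genes and 1 of 12 genes of the mitochondrial unfolded protein response. For 26 members (38.8%) another gene on the same strand ended within 500 bp upstream, against 17.4% of all genes. The median gap of these 26 was 103.5 bp, a spacing typical of genes inside worm operons, which are transcribed together and split by trans-splicing. mrps-2 and mrpl-4 follow each other in this way with 105 bp between them, mrps-22 follows dap-3, another gene of the small subunit, at 98 bp, and mrps-14 follows the nuclear RNAi gene nrde-2 at 104 bp. The 26 genes had a median of 47.2 RPKM and the other 41 one of 34.9 RPKM, given without a test.

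Levels per length within such neighbouring pairs followed no single order, as examples show without a test. nrde-2 had a mean of 192 RPKM and mrps-14 one of 125 RPKM, and dap-3 had 75.3 RPKM and mrps-22 39.7 RPKM. mrps-2 had 62.8 RPKM and mrpl-4 27.9 RPKM. cdc-26, upstream of mrps-30, had 63.1 RPKM and mrps-30 56.0 RPKM. fars-1, upstream of mrpl-23, had 49.2 RPKM and mrpl-23 103 RPKM. Neither nrde-2 nor dap-3 was called between the genotypes (log2 -0.28 and 0.38, adjusted p = 0.444 and 0.439, edgeR's quasi-likelihood test). Of the 67 members, 14 share exon bases with a gene on the opposite strand and 3 with one on the same strand. The sources used here give no strand setting for the counting, so reads in these shared stretches are uncertain between the genes.

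The summed reads of the 67 genes were the first measure compared between the groups. They made up 0.285 and 0.285% of the wild-type libraries on L4440, 0.324 and 0.265% of those on oma-1 RNAi, 0.257 and 0.220% of the mutant libraries on L4440 and 0.311 and 0.243% of those on oma-1 RNAi. The mean share was 0.290 ± 0.0246% in N2 and 0.258 ± 0.0388% in YY1683 (SD, n = 4 each), a ratio of 0.890. On L4440 both mutant libraries lay below both wild-type libraries, and on oma-1 RNAi the ranges overlapped. Relative to library sizes scaled by TMM, edgeR's correction for composition, the shares were 0.298 ± 0.0160% and 0.282 ± 0.0222% (SD, n = 4 each), a ratio of 0.949. The shares carry no test. Germline and oocyte markers took 0.202 to 0.285% of reads in N2 and 0.194 to 0.220% in YY1683, and the part of this in the members' share was not tested.

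**Figure D2:**
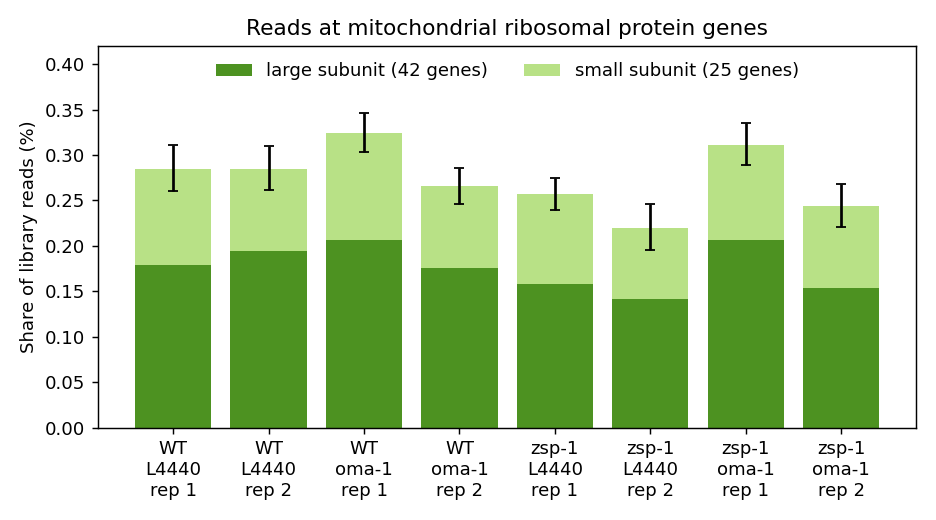
Share of all counted reads that fell on the 67 genes in each library (vertical axis, percent), split into the large subunit (dark) and the small subunit (light). Error bars are exact 95% binomial intervals of the total, which cover counting error only. Shares run from 0.220% to 0.324%, and the wild-type and mutant libraries overlap.

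With 42 against 25 genes, the large subunit had more reads than the small subunit in all 8 libraries, 3195 against 1766 in sum. Per gene the medians were close, 62.5 and 59 pooled reads. The ratio of large to small subunit reads reached 2.14 in wild-type replicate 2 on L4440, and its ranges overlapped between genotypes and between foods. The share of library reads of the large subunit was 0.189 ± 0.0143% in N2 and 0.165 ± 0.0287% in YY1683, and that of the small subunit 0.101 ± 0.0135% and 0.0932 ± 0.0114% (SD, n = 4 each). The order of the genes was similar in the genotypes, with a Spearman's rho of 0.829 between the mean RPKM values over the 67 genes, a description of genes that share lengths and scaling.

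Single members were then compared between the genotypes with edgeR's quasi-likelihood test over all genes with enough reads. Of the 67 members, 30 passed the filter on low counts, 20 of the large and 10 of the small subunit. They had 65 to 341 pooled reads, and the 37 that did not pass had 7 to 75. Averaged over both foods, 0 of the 30 tested members rose and 0 fell, where 23.1% of the 4567 tested genes were called (11.3% higher, 11.8% lower). At an unadjusted p under 0.05 there were 5 members, against 30.9% of all tested genes. With the replicate number as a block 2 members fell (mrpl-2 and mrpl-15), where 29.8% of all tested genes were called. DESeq2 called 0 members and had 0 at an unadjusted p under 0.05, beside 17.3% and 23.4% of all tested genes. Among the 3372 tested genes that had as many reads as the tested members (65 to 341), 18.0% were called. These genes match the members in the range of reads only. Their median SE was 0.31 on the log2 scale, against 0.37 for the 30 members, so changes at the members were measured less precisely. No test was made of the difference in calls.

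The fold changes were centred near 0. The median log2 fold change (mutant over wild type) of the 30 members was -0.05, and that of all tested genes was -0.08. The 10 small subunit genes had a median of 0.03 and a range of -0.34 to 0.43, and the 20 large subunit genes a median of -0.09 and a range of -1.03 to 0.86. For 17 of the 30 members the 95% interval lay wholly between -1 and 1, so a doubling or halving was outside it, and for the other 13 it reached beyond. mrpl-46 had a log2 fold change of 0.28 (interval -0.23 to 0.79), mrps-14 of -0.18 (-0.75 to 0.38), mrps-6 of -0.34 (-0.91 to 0.22) and mrps-5 of -0.08 (-0.74 to 0.57). mrpl-20 had -0.11 (-0.81 to 0.58). A p above the threshold does not show that these genes were alike in both genotypes, and the intervals give the sizes that the data allow.

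**Figure D3:**
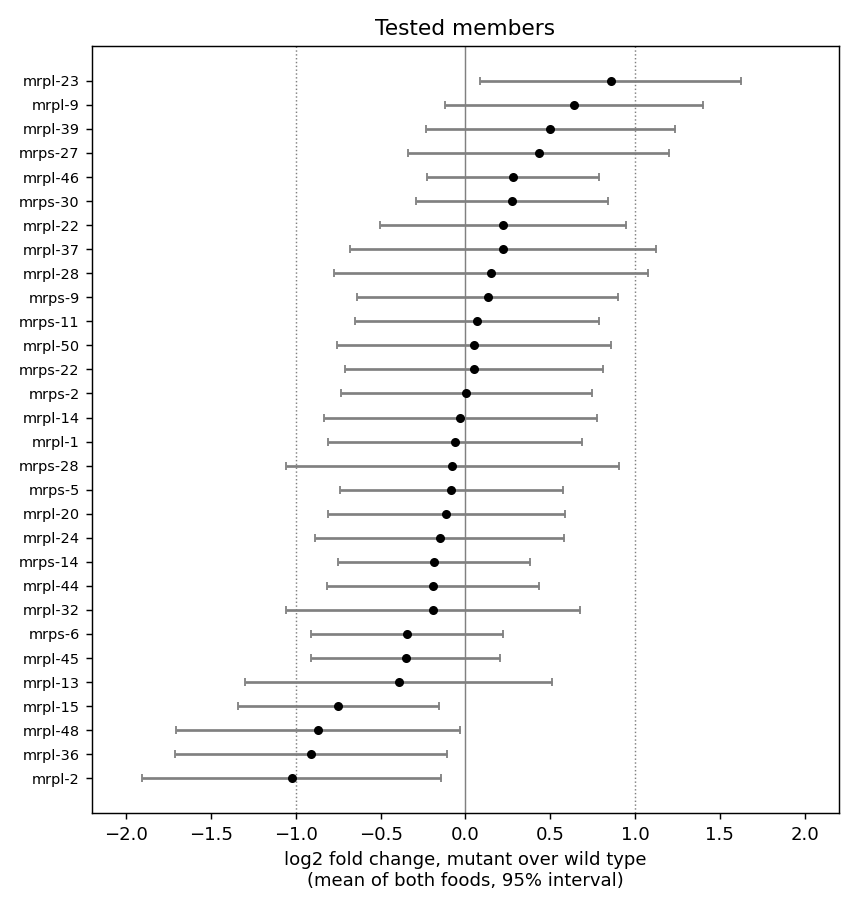
log2 fold change of the 30 tested members (mutant over wild type, mean of both foods) with 95% intervals from edgeR's quasi-likelihood fit without a replicate block. Dotted lines mark changes of 1 on the log2 scale. The points run from -1.03 at mrpl-2 to 0.86 at mrpl-23, none passed the adjusted threshold, and 17 intervals lie between the dotted lines.

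The members with the smallest p came from the large subunit. mrpl-15, whose bacterial homologue is L15 (chromosome I, 1436279 to 1441331), had 21, 25, 37 and 19 reads in N2 and 20, 4, 24 and 10 in YY1683. Its level was 117 ± 28.7 CPM (TMM-scaled) in N2 and 67.5 ± 29.2 CPM in YY1683 (SD, n = 4 each), with overlapping ranges and a log2 fold change of -0.75 (SE 0.29, adjusted p = 0.0632, edgeR). Scaling by library totals (adjusted p = 0.0373) or leaving out replicate 2 of wild type on oma-1 RNAi (0.0297) brought a call, as did the replicate block (log2 -0.80, adjusted p = 0.0125, edgeR).

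mrpl-2 lies on chromosome IV (773228 to 776655), and its bacterial homologue L2 sits beside the peptidyl transferase centre. It was 1 of 2 tested members whose genotypes did not overlap in TMM-scaled CPM. Among all tested genes 24.5% did not overlap. It had 9, 12, 20 and 8 reads in N2 and 9, 3, 6 and 4 in YY1683, that is, 55.3 ± 17.9 and 26.9 ± 0.737 CPM (SD, n = 4 each; log2 -1.03, SE 0.43, adjusted p = 0.0904, edgeR). The raw reads of the genotypes overlapped, and after scaling the lowest wild-type library had 31.7 CPM and the highest mutant library 27.8 CPM. The small SD in YY1683 rests on 3 to 9 reads a library. With the replicate block mrpl-2 was called (log2 -1.07, adjusted p = 0.0454, edgeR). The other was mrpl-48, a protein with no bacterial counterpart (chromosome V, 5593706 to 5594499), with 11, 10, 12 and 13 reads in N2 and 7, 2, 9 and 6 in YY1683 (log2 -0.87, SE 0.41, adjusted p = 0.139, edgeR). It is named here after its values were seen.

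mrpl-36 had a log2 fold change of -0.91 (SE 0.39, adjusted p = 0.100, edgeR) and mrpl-23 one of 0.86 (SE 0.37, adjusted p = 0.110, edgeR), the opposite direction. Both depended on single libraries. The first L4440 library of N2 had 5 reads at mrpl-36, and leaving it out gave an adjusted p of 0.00389. The second oma-1 RNAi library of YY1683 had 5 reads at mrpl-23, and leaving it out gave 0.0110.

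On each food alone the members gave 1 call. On L4440, mrpl-15 fell from 129.9 ± 13.4 CPM in wild type to 48.4 ± 19.1 CPM in the mutant (SD, n = 2 each; log2 -1.28, SE 0.43, adjusted p = 0.0391, edgeR), the 1 member of 30 called in a comparison that called 16.4% of all tested genes (8.74% higher, 7.66% lower). At an unadjusted p under 0.05 there were 2 members, beside 24.2% of all tested genes. DESeq2 called 0 members there (adjusted p = 0.238 for mrpl-15) and 10.6% of all tested genes, and the call was lost without any 1 of the 4 libraries on L4440. The adjusted p was 0.0509 and 0.152 without wild-type replicates 1 and 2, and 0.0790 and 0.205 without mutant replicates 1 and 2. It was 0.0807 with no filter on low counts. On oma-1 RNAi the same gene had 104 ± 39.9 and 86.6 ± 27.0 CPM (SD, n = 2 each; log2 -0.22, SE 0.39, adjusted p = 0.851, edgeR). The difference between the foods was itself not called (log2 1.05, SE 0.58, adjusted p = 0.9998, edgeR), so the fall is not shown to belong to L4440.

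On oma-1 RNAi 0 of 30 members were called, in a comparison that called 15.7% of all tested genes (8.36% higher, 7.38% lower). At an unadjusted p under 0.05 there were 0 members, beside 22.4% of all tested genes. DESeq2 likewise gave 0 and 0, beside 10.6% and 16.9% of all tested genes. The comparisons on the foods use separate libraries, and the averaged comparison uses all of them. Their medians over the 30 members were -0.11 on L4440 and 0.07 on oma-1 RNAi, beside -0.07 on each food for all tested genes. With 2 libraries a group the median SE was 0.54 and 0.48 on the log2 scale, larger than in the averaged comparison (0.37).

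The response to oma-1 RNAi was the other comparison of the design. In wild type 0 of 30 members were called, where 0.0438% of all tested genes were called, and 0 members had an unadjusted p under 0.05, beside 2.96% of all tested genes. In the mutant 0 of 30 were called and 2 had an unadjusted p under 0.05, beside 0.0438% and 2.82% of all tested genes. These were mrpl-13 (log2 1.47, SE 0.66) and mrpl-22 (log2 1.10, SE 0.49), both with higher values on oma-1 RNAi and both at an adjusted p of 1 in edgeR's test. DESeq2 called 0 members in either genotype and had 0 at an unadjusted p under 0.05. The difference of the genotype effect between foods called 0 members and 0.0% of all tested genes, with 0 members under an unadjusted p of 0.05 in edgeR (2.47% of all tested genes) and in DESeq2. The members' share of library totals was 1.03 times as high on oma-1 RNAi as on L4440 in N2 and 1.16 times in YY1683. By this measure the libraries on the foods overlapped in both genotypes. Relative to TMM-scaled sizes the ratios were 1.03 and 1.12, and the N2 libraries overlapped. In YY1683 those on L4440 (0.271 and 0.263%) lay below those on oma-1 RNAi (0.313 and 0.284%). The members' median log2 response was 0.08 in N2 and 0.25 in YY1683, beside 0.01 and -0.02 for all tested genes. These differences were not tested.

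The 37 members that did not pass the filter were compared by pooled reads. They had 814 reads in the 4 wild-type and 683 in the 4 mutant libraries, 0.0888 ± 0.00671% and 0.0759 ± 0.00967% of library reads (SD, n = 4 each), with overlapping ranges. The ratio of pooled shares, mutant over wild type, lay between 0.450 and 1.73, below 1 at 26 genes (70.3%) and above 1 at 11. Of the 3654 genes outside the test with as many reads (7 to 75), a comparison added after the data were seen, 70.4% were below 1. For 3 genes the exact 95% interval, which covers counting error only, did not include 1 (8.11%, beside 23.1% of those 3654 genes). mrpl-35 went from 30 to 13 reads (ratio 0.450, 0.215 to 0.889), mrpl-55 from 30 to 14 (0.484, 0.237 to 0.942) and mrpl-42 from 37 to 20 (0.561, 0.309 to 0.992). With no filter on low counts all 67 members entered the edgeR fit and 0 were called, with 4 at an unadjusted p under 0.05, beside 9.73% and 16.6% of the 12819 genes in that fit.

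The genes beside the members were examined next. For 66 members another gene lies within 1 kb or overlaps, 118 non-member genes in all. Of these 65 were tested, and 8 rose and 4 fell in the mutant (18.5% called, beside 23.1% of all tested genes). The 12 called genes lie next to 10 members, 4 of which were tested and none called. For 6 of the 12 the call held in all 13 alternative fits, and these 6 are described here. They were chosen after their values were seen.

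Of these 6, K07A12.5 rose most. It ends 828 bp upstream of mrps-15 on the same strand. It had 4, 4, 3 and 3 reads in N2 and 260, 143, 183 and 205 in YY1683 (log2 5.99, SE 0.34, adjusted p = 6.82e-13, edgeR). mrps-15 had 7, 5, 6 and 7 reads in N2 and 12, 6, 8 and 8 in YY1683. The neighbour separated the genotypes completely, and mrps-15 had few reads in both.

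F21D5.4 lies 402 bp from mrps-33 on the opposite strand. It rose from 89 to 941 pooled reads (log2 3.62, SE 0.26, adjusted p = 2.69e-11, edgeR), while mrps-33 had 10 reads in the wild-type and 7 in the mutant libraries. T25D3.3, whose exons overlap those of mrpl-28 by 62 bp on the opposite strand, rose from 45 to 194 reads (log2 2.25, SE 0.28, adjusted p = 3.89e-07, edgeR), and mrpl-28 had 33 and 36 reads (log2 0.15, SE 0.45). The libraries of T25D3.3 did not overlap between the genotypes, and those of mrpl-28 did.

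The calpain family gene clp-2, 349 bp from mrpl-16, rose from 292 to 769 reads (log2 1.49, SE 0.22), and mrpl-16 had 4 and 5. B0511.13, downstream of mrps-30 by 663 bp, had 37, 36, 27 and 42 reads in N2 and rose to 127, 48, 92 and 54 in YY1683 (log2 1.26, SE 0.24), and mrps-30 had 81 and 87 (log2 0.27, SE 0.27). In the opposite direction Y43F8C.9, 329 bp downstream of mrps-28, fell from 208 to 59 reads (log2 -1.70, SE 0.25), and mrps-28 had 35 and 30 (log2 -0.08, SE 0.48). The adjusted p of these 3 neighbours was at most 0.000141 in edgeR's test.

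**Figure D4:**
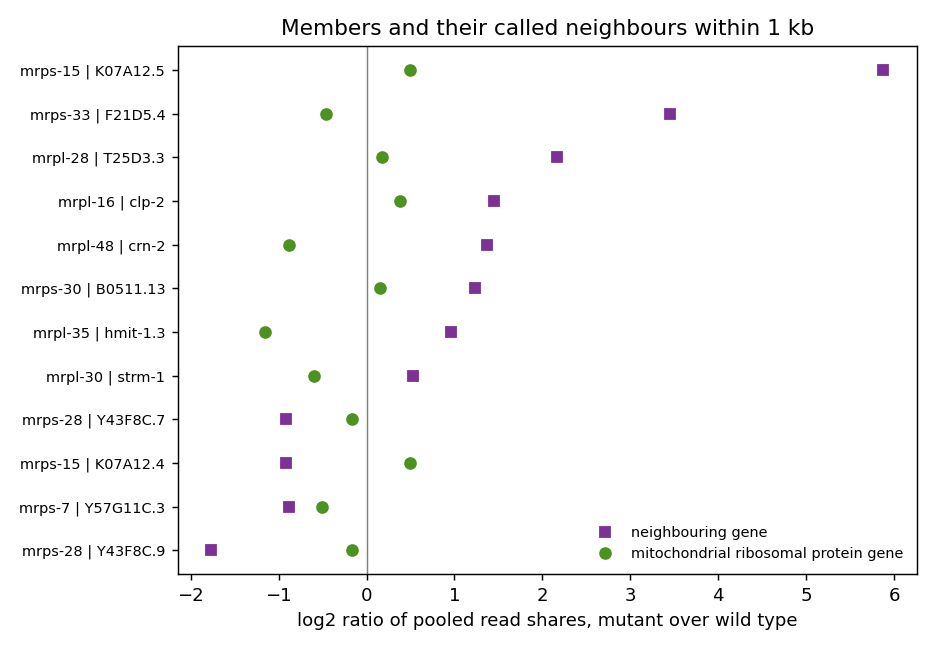
log2 ratio of pooled read shares (mutant over wild type) of the 12 called genes within 1 kb of a member (squares) and of the member beside each (circles). mrps-15 and mrps-28 each appear with 2 neighbours. The squares run from Y43F8C.9 with 208 wild-type and 59 mutant reads to K07A12.5 with 14 and 791. The squares were chosen for their calls and none of the members beside them was called, so the distance within a pair is partly set by that choice.

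The members were then set beside other genes of the mitochondrion, from lists chosen for their function. The edgeR calls in each list stand beside 23.1% of all tested genes called (11.3% higher, 11.8% lower). The 5 mitochondrial ribosome genes outside the naming pattern had a median of 45.1 RPKM. dap-3, mrps-18B and mrps-18C were tested and not called (log2 0.38, -0.14 and -0.31), and mrps-18A and mrps-18.C did not pass the filter. Of 22 genes of mitochondrial translation and genome upkeep in the tables, with a median of 21.4 RPKM, 12 were tested. The elongation factor gene tufm-2 rose from 116 ± 13.4 to 266 ± 63.4 CPM (SD, n = 4 each; log2 1.19, adjusted p = 0.000521, edgeR). gfm-1, the gene of elongation factor G, fell (log2 -0.77, SE 0.26, adjusted p = 0.0328, edgeR), a call lost in 7 of 13 alternative fits with adjusted p of 0.0673 to 0.253. Their median log2 fold change was 0.00.

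The 54 oxidative phosphorylation genes belong to the chain whose mitochondrially encoded subunits the mitochondrial ribosome makes. Of these 24 were tested, 2 rose and 3 fell, beside 11.3% and 11.8% of all tested genes. The list's median log2 fold change was -0.44. gas-1, a complex I gene on X, rose from 49.8 ± 14.4 to 196 ± 55.5 CPM (SD, n = 4 each). The complex IV gene cox-7C fell from 242 ± 59.1 to 51.3 ± 22.3 CPM and the ATP synthase gene asb-2 from 236 ± 118 to 86.0 ± 38.1 CPM (SD, n = 4 each). The adjusted p of these 3 was at most 0.00113 in edgeR's test. The other called genes of the list were cox-10, which rose, and atp-1, which fell. Of 23 protein import genes 12 were tested, 0 rose and 2 fell, tomm-22 (log2 -1.05, SE 0.28) and timm-17B.1 (log2 -0.98, SE 0.26). Their adjusted p was 0.00502 and 0.00542 in edgeR's test and 0.0866 and 0.0800 in DESeq2, which called neither. The list's median was -0.31, and 4 of its genes were called with the replicate block, beside 29.8% of all tested genes. Leaving out replicate 1 of the mutant on L4440 also ended both calls, and leaving out replicate 1 of the mutant on oma-1 RNAi that of timm-17B.1, with adjusted p of 0.0604 to 0.0876.

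Of 12 genes of the mitochondrial unfolded protein response, the programme that follows loss of mitochondrial ribosomal proteins in worms, 8 were tested and 0 called by edgeR or by DESeq2, with 1 (atfs-1) at an unadjusted p under 0.05 in edgeR. The mitochondrial chaperonin gene hsp-60 had 754 reads in N2 and 657 in YY1683 (log2 -0.10, adjusted p = 0.844, edgeR). The transcription factor gene atfs-1 had 59 and 34 (log2 -0.79, adjusted p = 0.126, edgeR). The list's median was -0.04.

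The 76 cytosolic ribosomal protein genes, which encode the proteins of the ribosome in the cytosol, had a median of 55.1 RPKM. Of 32 tested, 0 rose and 3 fell (rpl-11.1, rpl-3 and rps-21), and DESeq2 called 0, beside 17.3% of all tested genes. The call of rpl-3 was also lost with no filter on low counts, and that of rps-21 with another scaling (RLE). All 3 calls were also lost in several fits with 1 library left out. With the replicate block 5 of the 32 were called, beside 29.8% of all tested genes. The list's median was -0.35. Their share of library reads was 0.378 ± 0.0105% in N2 and 0.267 ± 0.0149% in YY1683 (SD, n = 4 each), beside 0.290 ± 0.0246% and 0.258 ± 0.0388% for the mitochondrial ribosomal protein genes. The medians of all these lists are set beside -0.08 for all tested genes and their edgeR calls beside 23.1%. No difference between the lists was tested.

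**Figure D5:**
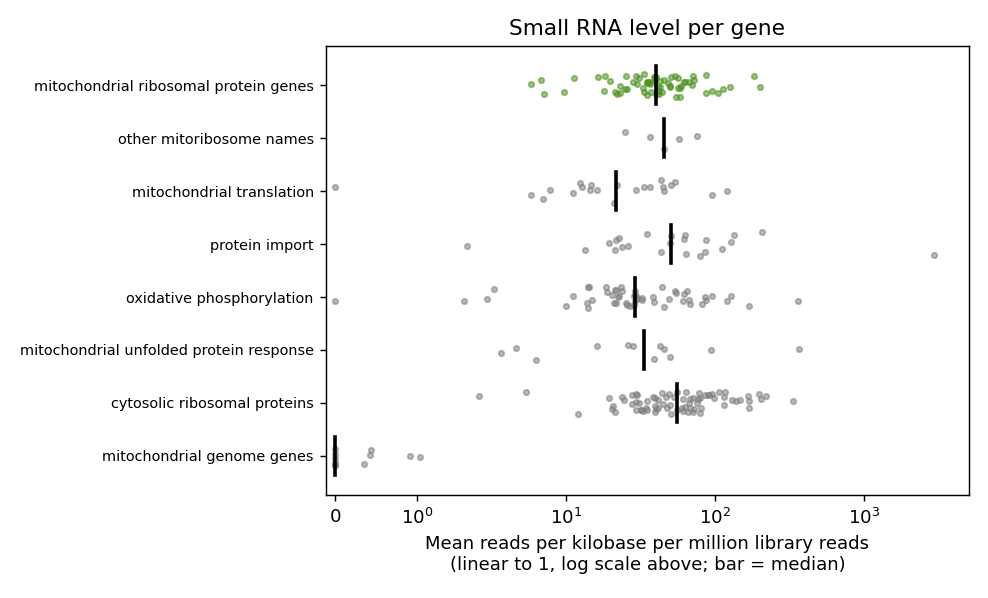
Mean small RNA level per gene over the 8 libraries (RPKM, linear to 1 and logarithmic above) for the 67 mitochondrial ribosomal protein genes (green) and 7 other lists (grey). Bars are medians, 39.7 for the mitochondrial ribosomal protein genes and 55.1 for cytosolic ribosomal protein genes. The 12 genes of the mitochondrial genome lie at or near 0.

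The genes on the mitochondrial genome itself, which the mitochondrial ribosome translates, stood at the other end of the scale. The 12 of them in the tables had 6 reads together, all in wild-type libraries, and 7 had none. A count of 0 in the 4 mutant libraries allows up to 3 reads, and the genotypes were not tested at this depth.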

How the data were processed

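Small RNAs of about 18 to 35 nt were cloned from 20 µg of total RNA in 8 libraries, per the labels' protocols. Each deposited file gives 1 library's raw count for every gene, with the summed exon length, per the file headers. The build WBcel235 and the tools cutadapt 1.14, TopHat2 2.1.1 and featureCounts 1.6.0 are named, without roles, per the submitters' processing notes. The sources used here give no strand setting, length filter or handling of multiply mapped reads.

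Counts were fitted in R 4.3.3 with edgeR 4.0.16 (filterByExpr with minimum count 10, TMM, quasi-likelihood). The fit had 4 group means over all 8 libraries and 4 residual degrees of freedom. The spread of each gene was moderated across genes, so tests and intervals used more than 4 degrees of freedom. Benjamini-Hochberg adjustment was over 4567 genes, with calls under 0.05. DESeq2 1.42.0 was an alternative, and so was a block for the replicate number. The labels give all groups numbers 1 and 2 without saying what they share. Deviations from group means correlated at 0.171 to 0.347 between equally numbered libraries in all 6 pairs of groups. This sign of pairing comes from the data and rests on 2 numbers only. The main fit has no block, so its counts and intervals leave that pairing out. The blocked value stands beside a result whose call it changes. The SE was taken from the log2 fold change and its F value (size of the change divided by root F), and intervals are approximate. The fit was tested on simulated data, with changes placed only in genes that had more reads than most tested members. It therefore does not show what changes could be found at those members. No label names separate cultures, so p-values measure only how far these samples differ, and that spread may be technical. Intervals and floors of 3 reads cover counting error only.

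Coordinates and overlaps come from the files; 66 of 67 members matched, by symbol, an Ensembl annotation of that build, and all 66 are protein-coding. Members named with every library are those called, the 8 highest per length, the 4 uncalled with the smallest p, and mrps-5. Members and lists were chosen with earlier results of these data known. Sequences were not used here.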

Additional observations from a re-analysis of the deposited data

How the results depend on the processing

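Every alternative listed for the members was run. In the averaged genotype comparison 0 members were called with RLE, no filter and DESeq2. Library totals called 1 (mrpl-15) and the replicate block 2 (mrpl-2 and mrpl-15). Of all genes tested in these fits, 22.1% were called with RLE, 9.73% with no filter and 17.3% with DESeq2. The shares were 25.2% with library totals and 29.8% with the replicate block. Fits with 1 library left out keep 1 library in a group and are not counted here. In such fits mrpl-15, mrpl-36 and mrpl-23 each passed the threshold at least once, as given above. On L4440 the 1 call became 0 with no filter and 0 with DESeq2, beside 6.58% and 10.6% of all genes tested in these fits. The other 4 comparisons gave 0 in all 13 fits. The replicate block changed no other call of a member. The members' share fell to 0.226% in wild type and 0.204% in the mutant without members that overlap another gene, by construction, and was 0.278 to 0.298% and 0.240 to 0.270% with 1 library left out. Without length, 5 of the 8 highest members stayed among the 8. Calls in the other lists, examined after the data were seen, depended on the fit. Translation had 1 with no filter and 1 with DESeq2. Import had 4 with totals, 0 with DESeq2 and 4 with the replicate block. Oxidative phosphorylation had 3 with DESeq2. Cytosolic ribosomal proteins had 5 with totals, 0 with DESeq2 and 5 with the replicate block. These counts stand beside the shares of all genes tested in the same fits, given above. Calls in these lists could also change with 1 library left out. The cause was not tested. Of 111 pairs of an uncalled named member and a setting, 6 had another sign. With 7 to 341 reads a gene and 2 libraries a group, small differences at single members may have been missed, and how small was not measured.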
